A study of Mus musculus with 6 samples.

Results

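The mitochondrial ribosomal protein genes were taken as the protein-coding genes of the RefSeq annotation whose symbols start with Mrpl or Mrps followed by a digit. There were 78 of them among 21887 protein-coding genes, 49 named for the large subunit (Mrpl) and 29 for the small subunit (Mrps). They were examined in 6 peak lists of NUP214, a nuclear pore protein, mapped on chromatin by CUT&Tag, a method that uses an antibody-tethered transposase to cut and tag the DNA around a protein. All 6 libraries came from bone marrow of mice carrying a floxed Nup214 allele (Nup214fl/+), 2 libraries a group. Control leukemia stem cells (control LSCs) had Nup214fl/+ and an acute myeloid leukemia driven by the fusion oncogene MLL-AF9, with no Cre named in the labels. Nup214-HET LSCs had the genotype Nup214fl/+,Tie2-Cre and the same oncogene, and Tie2-Cre is a recombinase that is active in endothelial as well as in blood cells. Both LSC groups were sorted as Lin-, Sca-1-, c-Kit+, CD16/32+ and CD34+ cells. The hematopoietic stem cell (HSC) group, from Nup214fl/+ mice without leukemia named, was sorted as LSK cells negative for CD48 and positive for CD150. Strain and age of the mice were not stated there.

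Mitochondrial ribosomes translate the few messenger RNAs encoded by mitochondrial DNA, which specify core subunits of the respiratory chain. Their RNA comes from the mitochondrial genome, while all their proteins are encoded in the nucleus, made in the cytosol and imported. The genes are scattered over the chromosomes, and many start from short, CpG-rich promoters shared with a divergent neighbour. NUP214 sits on the cytoplasmic face of the nuclear pore and takes part in the export of messenger RNA and proteins.

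The control LSC lists held 25437 and 10525 peaks, those of the Nup214-HET group 5452 and 4681, and the HSC lists 1045 and 634. The sources used here give no read totals. A relative depth, derived from the background behind each peak's fold enrichment, was taken with control LSC library 2 as 1. It was 3.72 for control LSC library 1, 1.77 and 1.72 for the Nup214-HET libraries, and 4.90 and 1.95 for the HSC libraries. All 6 labels name the NUP214 antibody, and no library analysed here measures cutting that is unrelated to it. Nothing in the labels ties the libraries to separate animals, and p-values between groups therefore cover the variation among these 6 libraries alone, which can be technical. The labels call all 6 libraries hematopoietic stem cells, and the groups follow the titles. Of 7 genes of the sort markers (Kit, Cd34, Fcgr3, Fcgr2b, Ly6a, Slamf1 and Cd48), 3 had a gene-end peak in control LSC library 1 (42.9%, against 43.3% of all genes). In the other libraries 0 had one, against 0.0868% to 21.9% of all genes. Nup214 itself had one in control LSC library 1 alone, which does not check the deletion. A peak does not measure expression, and cell identity was not checked by these data.

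The DNA just before the annotated start is shown for members with a peak in every LSC library, for the strongest members called in control LSCs alone and for the promoter that a pair of members shares. Sequences are those of RefSeq for GRCm38.p6 (the mm10 build), 5′ to 3′ along the gene, ended where another annotated gene begins and at 120 bases at most. Capitals mark the letters of 6 motifs, each searched on both strands and allowed to overlap. GGGCGG is bound by SP factors of GC-rich promoters, and CCGGAAG by ETS factors. GCATGCG belongs to the site of NRF1, a regulator of nuclear genes for mitochondria, and AAGATGG to that of YY1. CACGTG is the E-box of MYC and related factors, and CCAAT is the box of the factor NF-Y.
Mrps18b, chr17:35916441-35916511, minus strand: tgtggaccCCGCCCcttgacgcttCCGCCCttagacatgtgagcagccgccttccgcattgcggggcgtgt
Mrps14, chr1:160195095-160195214, plus strand: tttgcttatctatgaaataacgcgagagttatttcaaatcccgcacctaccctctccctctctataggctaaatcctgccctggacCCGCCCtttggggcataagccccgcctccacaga
Mrpl41, chr2:24975099-24975218, minus strand: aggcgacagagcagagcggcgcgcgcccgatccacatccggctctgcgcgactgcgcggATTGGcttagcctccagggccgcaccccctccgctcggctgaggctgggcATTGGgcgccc
Mrpl55, chr11:59202432-59202485, plus strand: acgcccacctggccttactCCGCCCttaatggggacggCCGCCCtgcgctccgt
Mrpl51, chr6:125192101-125192199, plus strand: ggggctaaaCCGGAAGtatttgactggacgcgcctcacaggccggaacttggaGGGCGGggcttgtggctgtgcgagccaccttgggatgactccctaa
Mrps36, chr13:100744660-100744779, minus strand: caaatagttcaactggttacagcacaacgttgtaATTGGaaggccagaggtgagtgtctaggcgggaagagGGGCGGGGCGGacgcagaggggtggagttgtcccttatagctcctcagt
Mrpl18, chr17:12916092-12916211, minus strand: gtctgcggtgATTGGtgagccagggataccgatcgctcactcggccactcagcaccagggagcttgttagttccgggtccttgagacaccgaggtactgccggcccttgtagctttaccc
Mrpl17, chr7:105811088-105811207, minus strand: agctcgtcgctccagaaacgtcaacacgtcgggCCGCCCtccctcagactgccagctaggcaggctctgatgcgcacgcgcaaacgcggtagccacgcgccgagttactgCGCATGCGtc
Mrps16, chr14:20393635-20393754, minus strand: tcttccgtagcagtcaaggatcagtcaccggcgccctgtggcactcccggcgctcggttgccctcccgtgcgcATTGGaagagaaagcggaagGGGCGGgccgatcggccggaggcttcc
Mrpl46 and Mrps11, chr7:78783090-78783130, plus strand: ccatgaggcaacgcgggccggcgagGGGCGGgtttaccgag
RefSeq start windows were matched for 69 of the 78 members. Mrps28, called in all 4 LSC libraries, and Mrpl38 had none. The bases printed for Mrpl51 lay outside its peak in control LSC library 2, and those for Mrps36 outside its peak in Nup214-HET library 2.

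NUP214 peaks lay at most mitochondrial ribosomal protein genes in control LSC library 1, at fewer in each further LSC library and at 0 in HSCs. A gene-end peak is a peak with at least 1 bp no farther than 1 kb from one of the annotated ends of a gene. In control LSC library 1 it was found at 60 members (76.9%), against 43.3% of all protein-coding genes. In control LSC library 2 it was found at 31 members (39.7%), against 21.9% of all genes. Nup214-HET library 1 had 17 members (21.8%), against 11.5%, and library 2 had 11 (14.1%), against 9.49%. The share of members was thus 1.78 and 1.81 times that of all genes in control LSCs and 1.89 and 1.49 times in Nup214-HET LSCs. HSC library 1 had 0 of 78 members, against 1.04% of all genes, and HSC library 2 had 0 of 78, against 0.0868%. In at least 1 LSC library 61 members were called (78.2%, against 44.6%). Peaks inside the annotated gene (span peaks) were found at 61 and 26 members in control LSCs, against 52.2% and 26.5% of all genes. They were found at 18 and 12 members in Nup214-HET LSCs, against 15.2% and 12.8%. The members' share was thus the higher in all 4 LSC libraries by this count too, with the smallest gap in Nup214-HET library 2.

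Over the 2 libraries of a group, control LSCs had a mean of 45.5 ± 20.5 called members (SD, n = 2). Nup214-HET LSCs had a mean of 14 ± 4.24 (SD, n = 2) and HSCs had 0 in each. Control LSCs exceeded Nup214-HET LSCs by 31.5 members and HSCs by 45.5. Counts of the 2 LSC groups did not overlap, and neither did their shares of all genes (43.3% and 21.9% against 11.5% and 9.49%). The mean number of members in control LSCs was 3.25 times that in Nup214-HET LSCs, and the mean share of all genes was 3.11 times as high (32.6% against 10.5%). Nup214-HET LSCs exceeded HSCs by 14. Each of these comparisons had p = 0.33 by an exact two-sided permutation test, the smallest p that 2 against 2 libraries allow. All 3 differences depended on list length. With all lists cut to the 634 peaks of best q value, control and Nup214-HET LSCs differed by 0 members, and each exceeded HSCs by 2.5. With the 4 LSC lists cut to 4681 peaks, the LSC groups differed by 9 members, and without control LSC library 1 by 17. At 4681 peaks the counts were 26 and 20 members in control LSCs (against 17.7% and 14.3% of all genes) and 17 and 11 in Nup214-HET LSCs (against 11.2% and 9.49%). At 634 peaks they were 2 and 3 members in each LSC group, 2.56% and 3.85% of the family. The shares of all genes were then 2.69% and 2.52% in the control libraries and 2.44% and 2.46% in the Nup214-HET libraries. The family's share thus rested on 2 or 3 members a library and lay near that of all genes, with no direction to be read.

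**Figure D1:**
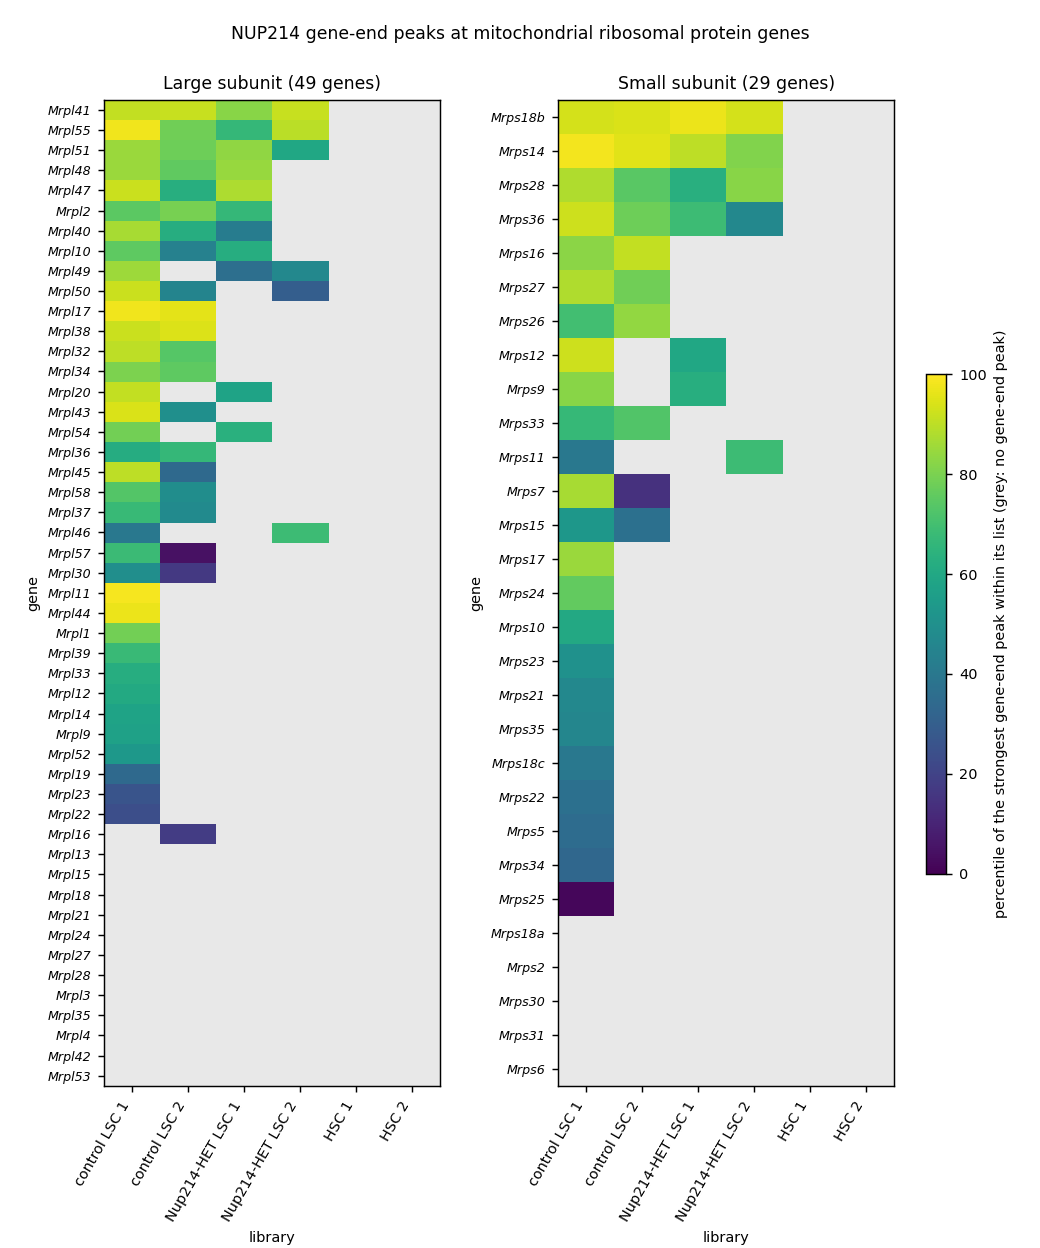
Each row is 1 of the 78 genes, each column 1 of the 6 libraries, and the colour gives the percentile, within that library's own list, of the fold enrichment of the strongest gene-end peak (grey, no gene-end peak). The 7 genes called in all 4 LSC libraries stand at the top of the panels of 49 and 29 genes, and both HSC columns are empty.

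The ratio of the members' share to that of all genes was lower for CpG-rich than for other starts in all 4 LSC libraries. In percentage points the gap was instead wider for CpG-rich starts in control LSC library 2, and neither difference was tested. A start was called CpG rich when its 300-base window had at least 55% G and C and a CpG observed over expected of at least 0.6. Such starts made up 48 of the 69 members with a listed start (69.6%), against 41.3% of all coding genes with one. Another coding gene ended within 1 kb of 44 members (56.4%), against 24.8% of all genes. Among genes with a CpG-rich start, control LSC library 1 had a gene-end peak at 85.4% of the members and 70.3% of all genes, and library 2 at 52.1% and 40.0%. The Nup214-HET libraries had one at 12 of these 48 members, against 21.1% of all such genes, and at 8 of them (16.7%), against 16.9%. Of the 21 members with another kind of start, 13 and 4 were called in control LSCs (61.9% and 19.0%), against 25.7% and 10.7%. In Nup214-HET LSCs 3 and 2 of them were called (14.3% and 9.52%), against 5.95% and 5.1%. For the 33 members with both a CpG-rich start and a close neighbour, the shares in control LSCs were 78.8% against 82.7% and 54.5% against 50.1%. The Nup214-HET libraries had 30.3% against 29.9% and 18.2% against 24.5%. For such genes the members' shares therefore lay near or below those of all genes of their kind. The 15 members with a CpG-rich start and no close neighbour all had a gene-end peak in control LSC library 1, against 63.5% of such genes, and 7 of 15 had one in library 2, against 34.4%. In each Nup214-HET library 2 of these 15 were called, against 16.3% and 12.7%. How far base composition and neighbours enter the members' shares was not tested.

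**Figure D2:**
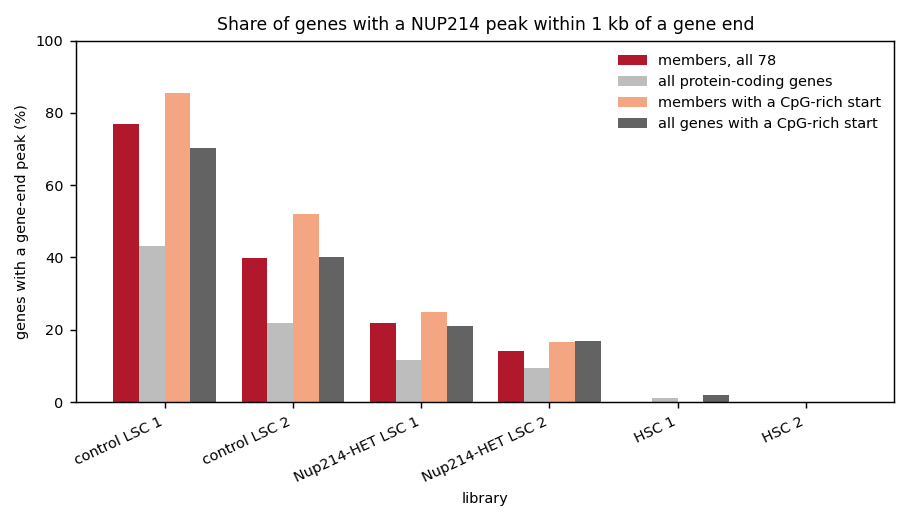
Bars give the percent of genes with a NUP214 peak within 1 kb of a gene end in each library, for the 78 members, all 21887 protein-coding genes, and the 48 members and 7219 genes with a CpG-rich start. In control LSC library 1 the members stand at 76.9% and all genes at 43.3%, and the gap is narrower among genes with a CpG-rich start, at 85.4% and 70.3%.

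Between replicates, 30 of the 31 members called in control LSC library 2 were also called in library 1. These 30 form the control LSC set (38.5% of the members, against 21.3% of all genes in both libraries). The exception was Mrpl16, at percentile 17.8 of library 2. Over all protein-coding genes, 4655 of the 4800 called in control LSC library 2 were also called in library 1. In Nup214-HET LSCs 8 members were called in both libraries (10.3%, against 6.76% of all genes) and 12 in 1 library. In HSCs the set of both libraries held 0 members, against 0.0411% of all genes. All 20 members called in a Nup214-HET library were also called in control LSC library 1, and 0 were called in Nup214-HET LSCs alone, against 0.640% of all genes. Those were 140 genes, beside 2524 and 2076 called in Nup214-HET libraries 1 and 2. Most genes called in a Nup214-HET library thus had a call in control LSCs too. Both LSC sets shared 7 members (8.97%, against 5.82%). Another 17 members (21.8%, against 10.8%) belonged to the control set without a call in Nup214-HET LSCs, and 6 of the set were called in 1 Nup214-HET library. Without control LSC library 2 the control set held 60 members (against 43.3% of all genes), and 40 of them (51.3% of the family, against 29.8%) lacked a call in Nup214-HET LSCs. Without Nup214-HET library 2 that group's set held 17 members (against 11.5%) and the shared set 12 (15.4%, against 8.96%). At 4681 peaks a list, the control LSC set held 16 members (20.5%, against 12.3%), and 5 of them (6.41%, against 4.39%) lacked a call in Nup214-HET LSCs.

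The 7 members called in all 4 LSC libraries were 4 genes of the small subunit, Mrps18b, Mrps14, Mrps28 and Mrps36, and 3 of the large subunit, Mrpl41, Mrpl55 and Mrpl51. At all 7 the strongest peaks of the 4 libraries overlapped one another, with 176 to 505 bases in common. Fold enrichments are the authors' values for each peak and rank peaks only within 1 list, so the percentile in the list is given beside them.

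Mrps18b, which encodes one of the mammalian proteins related to bacterial S18, had the highest mean percentile of the 7, 94.5. Fold enrichment was 13.4 and 11.5 for control LSC libraries 1 and 2, then 9.95 and 8.42 for Nup214-HET libraries 1 and 2, at percentiles of 93.5, 94.2, 97.1 and 93.4. The peak lay over the start of the gene on the minus strand (chr17:35916204-35917005 in control LSC library 1), across the printed bases with their pair of SP matches, and also lay at an end of Ppp1r10, which encodes a phosphatase regulator. A second peak at the other end, beside Atat1, was called in control LSC libraries 1 and 2 and in Nup214-HET library 2, with folds of 12.4, 6.11 and 3.82. Its paralogs differed: Mrps18c had a gene-end peak in control LSC library 1 alone, at percentile 40.1, and Mrps18a had no peak in any list.

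Mrps14, a protein of the small subunit's head, had folds, in the same order of libraries, of 16.5, 12.1, 7.98 and 6.67, at percentiles of 98.1, 95.5, 90.1 and 81.1. Its peak (chr1:160194942-160195525 in control LSC library 1) had no other coding gene beside it, and its summits lay 47 to 158 bp before the start. Mrpl41 had folds of 12.4, 10.5, 6.97 and 8.08, at percentiles of 90.8, 91.5, 82.1 and 91.7. The summit of its strongest peak lay 110 and 111 bp before the start in the control libraries. It lay 592 and 694 bp before it in the Nup214-HET libraries, where the peaks were 1436 and 1001 bp wide. The peak of control LSC library 1 was 1177 bp wide and reached about as far toward Pnpla7, and control LSC library 2 had a second, weaker peak with its summit 746 bp before the start.

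Mrpl55 had folds of 16.1, 7.99, 5.79 and 7.70, at percentiles of 97.7, 78.5, 66.5 and 89.6, and its summit lay 42 bp before the start in both control LSC libraries. In 3 of the 4 libraries its summit lay within the printed bases, which hold 2 SP matches.

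Mrps28 had folds of 11.6, 7.54, 5.65 and 6.77, at percentiles of 87.9, 74.2, 63.1 and 82.3. Mrpl51 had folds of 10.8, 7.91, 7.12 and 5.38, and shares its peak with the start region of Ncapd2, a condensin subunit. Its summits lay 358 to 487 bp before the Mrpl51 start, so the peak was centred away from that start. Mrps36 had folds of 13.04, 7.93, 5.93 and 4.94, at percentiles of 92.5, 78.03, 68.7 and 46.5, with summits 18 to 39 bp inside the gene. Its protein was first assigned to the ribosome and is now known in mammals as a part of the 2-oxoglutarate dehydrogenase complex. Only Mrpl41 and Mrps18b had a gene-end peak in all 4 LSC lists when each was cut to its 634 peaks of best q value (2.56% of the family, against 0.886% of all genes).

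Among the 17 members called in both control LSC libraries and in no Nup214-HET library, Mrpl17, Mrpl38, Mrps16, Mrps27, Mrpl32, Mrpl34, Mrps26 and Mrpl43 had the highest mean percentiles. Mrpl17, a large-subunit protein related to bacterial L17, had folds of 16.2 and 12.4, at percentiles of 97.8 and 95.9, above those of most members that were called in all 4 LSC libraries. Its peak (chr7:105810949-105811393 in library 1) covered the printed bases, which hold an NRF1 and an SP match, with summits 78 and 53 bp before the start. Mrpl38 had folds of 12.8 and 11.8, at percentiles of 91.8 and 94.9. Mrps16, a small-subunit protein whose loss in humans causes a respiratory chain disease, had folds of 10.2 and 10.3, at percentiles of 82.5 and 90.7. These 3 genes stood at or above percentile 82.5 in both control lists, and neither Nup214-HET list held any peak at their ends or in their spans.

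Mrps27, which encodes a pentatricopeptide repeat protein, had folds of 11.6 and 7.95 at its start, beside Ptcd2. Each control LSC library also had a span peak farther into the gene, and Nup214-HET library 1 had a span peak elsewhere in it, with a fold of 8.08. Mrpl32, whose maturation by a mitochondrial protease licenses ribosome assembly in mice, had folds of 12.2 and 7.49 at a start shared with Psma2, a proteasome subunit. Mrpl43 had folds of 13.8 and 5.65 at a start shared with Twnk, the mitochondrial DNA helicase. Mrpl34 had folds of 9.84 and 7.65, and Mrps26 had 8.30 and 8.74. A missing call is not a missing signal, since the lists hold only peaks that passed the caller's q of 0.05.

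**Figure D3:**
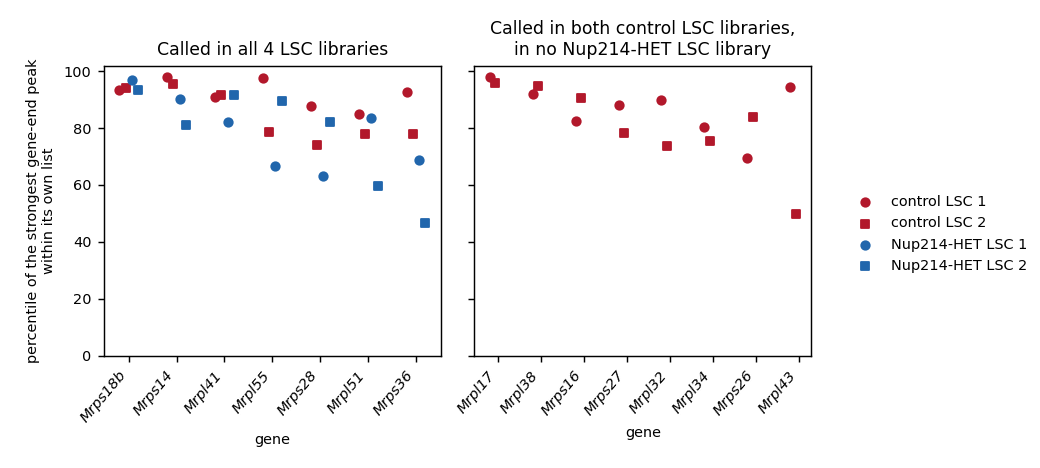
Points give the percentile of the strongest gene-end peak of a gene within its own library's list (circles, library 1, squares, library 2; red, control LSC, blue, Nup214-HET LSC). Mrps18b stays at or above 93.4 in all 4 LSC libraries, and Mrpl17 reaches 97.8 and 95.9 in control LSCs with no point in Nup214-HET LSCs.

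Of the other members, Mrpl47, Mrpl48, Mrpl10, Mrpl40 and Mrpl2 were called in both control LSC libraries and in Nup214-HET library 1, and Mrpl50 in both and in Nup214-HET library 2. Mrpl49 was called in both Nup214-HET libraries, at percentiles of 36.4 and 46.7, and in control LSC library 1 at 85.3, with a peak that also lay at Fau, the gene of a ubiquitin-like fusion with a cytoplasmic ribosomal protein. Mrps9, Mrpl20, Mrps12, Mrpl54, Mrpl46 and Mrps11 were called in control LSC library 1 and in 1 Nup214-HET library. In control LSC library 1 alone of the 4 LSC libraries, 23 members had a gene-end peak, the strongest at Mrpl11, with a fold of 17.6 at percentile 98.8, and at Mrpl44, with 15.6 at 97.2. The weakest was at Mrps25, at percentile 1.95.

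The members' peaks were of ordinary strength among gene-end peaks. The median percentile of a member's strongest gene-end peak was 75.5 in control LSC library 1, against 75.2 over all genes with one, and 73.8 against 71.0 in library 2. It was 66.5 against 68.5 and 68.4 against 68.8 in the Nup214-HET libraries. Genes of both subunits were called. Of the 49 large-subunit genes, 36, 21, 11 and 6 had a gene-end peak in control LSC libraries 1 and 2 and Nup214-HET libraries 1 and 2, and of the 29 small-subunit genes 24, 10, 6 and 5 had one. The small-subunit share was the higher in control LSC library 1 (82.8% against 73.5%) and in Nup214-HET library 2 (17.2% against 12.2%), and the lower in control LSC library 2 (34.5% against 42.9%) and Nup214-HET library 1 (20.7% against 22.4%), so the subunits had no common order.

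Where the strand was known, most called members had a peak at the outer start of the gene rather than at its far end only. The same split was not computed over all called genes, so these counts have no background. Start and other end mean here the outermost annotated ends, which can differ from the listed start. In control LSC library 1, Mrpl22 and Mrps23 counted at the other end only. Each also had a span peak, with its summit 26 and 45 bp before a listed start. Mrpl36 counted there at both ends, and its other-end summit lay 36 bp before its listed start. Of 54 called members with a known strand in control LSC library 1, 47 had the peak at the start only, 3 at the other end only and 4 at both. In control LSC library 2 these were 25, 1 and 3 of 29, in Nup214-HET library 1 all 15 were at the start, and in library 2 there were 9 at the start and 1 at both of 10. The summit lay within 250 bp of a listed start in 77.8% and 82.8% of these members in control LSCs, against 76.6% and 75.1% of all called genes with a listed start. In Nup214-HET LSCs the shares were 60.0% and 70.0%, against 60.6% and 58.8%. The median distance was 66.5 and 72.0 bp in control LSCs and 148 and 232.5 bp in Nup214-HET LSCs, where peaks were also wider (a median of 474 and 562 bp at members, against 371.5 and 243 bp). Over all called genes the distance was 103 and 121 bp in control LSCs and 197 and 205 bp in Nup214-HET LSCs, so it was longer in the Nup214-HET libraries over other genes too. Median peak width over whole lists was 274 and 212 bp in control LSCs and 435 and 454 bp in Nup214-HET LSCs, so wider peaks were not particular to members.

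**Figure D4:**
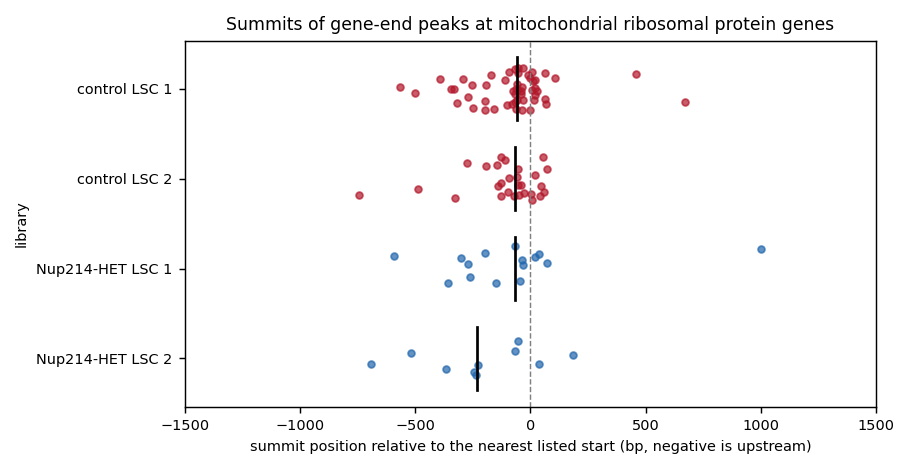
Each point is the summit of a gene-end peak at a member with a listed start, placed by its distance in bp from the nearest listed start (negative is upstream), and vertical bars are medians of the peaks within 1500 bp. The median lies 57 and 66 bp upstream in control LSCs and 69 and 232.5 bp upstream in Nup214-HET LSCs.

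Many of these peaks belonged to more than 1 gene. In control LSCs 51.7% and 61.3% of the called members, and in Nup214-HET LSCs 64.7% and 63.6%, had a peak that also lay within 1 kb of an end of another coding gene, against 30.7%, 34.5%, 40.3% and 41.8% of all called genes. Mrps12, a protein of the ribosome's decoding site, had folds of 13.02 in control LSC library 1 and 5.46 in Nup214-HET library 1 at the peak it shares with Sars2, the mitochondrial seryl-tRNA synthetase. Mrpl46 and Mrps11 are divergent neighbours whose annotated starts are separated by the 41 bases printed above, with 1 SP match. A single peak lay at both genes in control LSC library 1 (chr7:78782958-78783123, fold 5.82) and in Nup214-HET library 2 (chr7:78782844-78783405, fold 5.77), and so these members are not independent of each other.

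The rule of outermost ends left out a few members with a peak at an inner start. Of the 17 members with no gene-end peak in any library, 4 had a span peak: Mrpl18, Mrpl15, Mrpl4 and Mrpl24. Mrpl18 had one in all 4 LSC libraries, with folds of 14.7, 11.5, 7.07 and 5.37 at percentiles of 95.9, 94.2, 83.2 and 59.6. This peak (chr17:12915940-12916660 in control LSC library 1) had its summit 200 to 268 bp before the listed start of Mrpl18, near the annotated end of the neighbouring gene Tcp1, a chaperonin subunit, while the annotated gene extends more than 1 kb farther. With listed starts counted beside the outer ends, a setting chosen after the data were seen, 8 members were called in all 4 LSC libraries in place of 7. The control LSC set grew to 32 by Mrpl18 and Mrps23. Shares of all genes under this setting were not computed, so these gains have no background. Mrpl24 gained a call in control LSC library 1 by this setting, with its summit 22 bp inside the gene. Mrpl15, with a fold of 9.15, and Mrpl4, with 6.62, had no listed start. The remaining 13 members had no peak in any list: Mrps2, Mrps6, Mrps18a, Mrps30, Mrps31, Mrpl3, Mrpl13, Mrpl21, Mrpl27, Mrpl28, Mrpl35, Mrpl42 and Mrpl53.

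In HSCs no member had a gene-end peak or a span peak in either library, where span peaks were found at 2.03% and 1.08% of all genes. With 0 of 78 members, a share of up to 3.85% remains possible in each library (3 over 78, an approximate upper 95% limit). This limit takes genes as independent, which members that share a peak are not, and it is only a rough guide. It lies above the 1.04% and 0.0868% of all genes, so a difference between the members and other genes was not detectable in HSCs. None of the members' gene-end peaks overlapped the 109 regions called in all 6 libraries, and leaving those regions out changed no count of members.

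Other nuclear genes of mitochondrial gene expression were also called more often in the control LSC than in the Nup214-HET libraries, as were all genes. Their difference from the family was not tested. Of 54 genes on 4 related lists, 46 and 21 had a gene-end peak in control LSC libraries 1 and 2 (85.2% and 38.9%, against 43.3% and 21.9% of all genes). The Nup214-HET libraries had 9 and 6 (16.7% and 11.1%, against 11.5% and 9.49%), and the HSC libraries had 0 (against 1.04% and 0.0868%). The control LSC set held 21 of the 54 (38.9%, against 21.3% of all genes) and the Nup214-HET set 4 (7.41%, against 6.76%). By list, the control LSC set held 11 of 25 genes of ribosome assembly and ribosomal RNA modification, 6 of 18 translation factors, 3 of 6 genes of mitochondrial transcription and 1 of 5 ribosomal proteins with other symbols, the last being Dap3. Mtrf1l, a mitochondrial release factor, and Mrm1, a ribosomal RNA methyltransferase, were called in all 4 LSC libraries, 3.70% of the 54 genes against 5.82% of all genes and 8.97% of the family. Mtrf1l had folds of 15.5, 13.1, 11.2 and 9.49, at percentiles of 97.1, 96.8, 98.6 and 96.7. Mrm1 had folds of 12.8, 7.94, 5.32 and 6.01. Aurkaip1, a ribosomal protein under another symbol, and Mterf3, a regulator of mitochondrial transcription and ribosome assembly, were called in both Nup214-HET libraries and in control LSC library 1.

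Start windows of the members held ETS, YY1 and NRF1 letters more often than those of all genes, and SP letters about as often. In the 300-base windows (250 before and 50 after the start), CCGGAAG occurred in 34.8% of the 69 members, against 11.9% of 17492 coding genes. AAGATGG occurred in 18.8% against 6.35%, and GCATGCG in 11.6% against 4.50%. GGGCGG occurred in 49.3% against 46.3%, CACGTG in 7.25% against 7.91% and CCAAT in 39.1% against 39.2%. Among CpG-rich starts the members had 37.5% against 19.8% for CCGGAAG, 18.8% against 6.80% for AAGATGG, 12.5% against 7.42% for GCATGCG and 56.3% against 79.8% for GGGCGG. Within the family, CCGGAAG was found in 10 of 28 members of the control LSC set and in 6 of 14 members with no gene-end peak in LSCs, and GCATGCG in 4 of 28 and 0 of 14. GGGCGG was found in 18 of those 28 and 3 of those 14, and 25 of the 28 had a CpG-rich start against 7 of the 14. Over all coding genes with a listed start, GGGCGG occurred in 46.3%, and in 73.1% of those in the control LSC set. CpG-rich starts made up 41.3% and 73.4%, so both features went with calls outside the family too. The motif counts are matches of letters, and no factor was measured.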

How the data were processed

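NUP214 CUT&Tag was measured in 6 mouse bone marrow libraries, 2 each of control LSCs, Nup214-HET LSCs and HSCs, grouped by sample title. Per the submitters' processing notes, the mm10 build was used with Bowtie2 2.2.9, FastQC 0.11.5, ChIPseeker and MACS2. The authors deposited 1 peak list per library, giving each peak's fold enrichment at its summit (a linear ratio), −log10 p and −log10 q values and a score, and the smallest −log10 q of each list was 1.30 to 1.32. No control sample, duplicate removal or caller setting is stated in the sources used here.

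Peaks off the 21 main chromosomes (30 to 52 a list) were dropped. Genes came from the RefSeq table of GRCm38.p6, and starts and strands from its table of start windows. Coordinates are 1-based. Percentiles rank the fold within a list. The relative depth was solved from the fold and p columns of peaks with a −log10 p of at most 60 (whole pileups recovered for 99.3% to 100% of them within 0.0001), as background over the smallest peak width, and rests on the caller's usual formula. The overlap code was tested on simulated peaks. Groups were compared over libraries by exact permutation tests. Counts of members are set beside the percent of all protein-coding genes called, with no test over genes. Named genes are those in all 4 LSC libraries, the 8 strongest of control LSCs alone, and those with span peaks only. The members, lists, motifs and tests were chosen with earlier results of these data known. Alternatives were a stricter q, equal list lengths, 500 bp and 2 kb windows, starts only, summits only, a library left out, common regions left out and the replicate block. Python 3.11.15, pandas 2.3.3, NumPy 2.4.6, SciPy 1.17.1 and matplotlib 3.10.9 were used.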

Additional observations from a re-analysis of the deposited data

How the results depend on the processing

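Of 98 values obtained under the alternatives, 15 moved by over 1.5 times, 5 of the 40 differences and 10 of the 58 set counts. Some of the 98 could not move, so these counts do not measure robustness. The replicate block repeats the same mean differences, and 0 member gene-end peaks overlapped the common regions. Leaving out an HSC library changed nothing, since both had 0 members. None reversed, and 39 of the 40 differences kept their sign. With all lists cut to 634 peaks, control LSCs and Nup214-HET LSCs differed by 0 members (exact permutation p = 1), and each exceeded HSCs by 2.5. The control LSC set, the Nup214-HET set and the shared set then held 2 members each (2.56%), against 1.82%, 1.72% and 0.886% of all genes. Of the control set, 0 members lacked a gene-end peak in Nup214-HET LSCs, against 0.589% of all genes. With LSC lists cut to 4681 peaks, the LSC groups differed by 9 members and the control set held 16 members (against 12.3% of all genes). Of these 16, 5 lacked a gene-end peak in Nup214-HET LSCs (against 4.39% of all genes). Leaving out 1 library at a time gave differences of 17 to 46 members between the LSC groups, 31 to 60 between control LSCs and HSCs and 11 to 17 between Nup214-HET LSCs and HSCs. The control set then held 31 to 60 members (against 21.9% to 43.3% of all genes) and the Nup214-HET set 11 to 17 (against 9.49% to 11.5%). The shared set held 7 to 12 (against 5.82% to 8.96%). Of the control set, 18 to 40 members lacked a gene-end peak in Nup214-HET LSCs (against 11.4% to 29.8% of all genes). A −log10 q of at least 2.64, 500 bp and 2 kb windows, starts only, summits only, listed starts added and common regions left out moved none of these by over 1.5 times.

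With the replicate number as a block (replicate block) the differences were again 31.5, 45.5 and 14 members, with an exact p of 0.5, the smallest possible. The numbers are shared labels only: the differences of replicate 1 minus 2 in gene calls correlated between groups at 0.0020, -0.043 and 0.0012 over genes. Short lists limit what can be seen in HSCs. Read totals are unknown, and the derived relative depth was 4.90 and 1.95 there, against 1 in control LSC library 2.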

Other observations

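The RefSeq table also holds 6 pseudogenes named for this family (Mrpl23-ps1, Mrpl48-ps, Mrps36-ps1, Mrps36-ps2, Mrps36-ps3 and Mrpl27-ps). In all 6 libraries 0 of the 6 had a peak within 1 kb of an end or in the span. Their parent genes Mrpl23, Mrpl48 and Mrps36 had gene-end peaks in 1, 3 and 4 of the LSC libraries, and Mrpl27 in 0. No share over other pseudogenes was computed, so the 0 of 6 cannot be read as a difference from the parent genes.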
